A study of Mus musculus with 2 samples.

Results

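The TGF-beta receptor and Smad genes were described in mouse haematopoietic stem and progenitor cells from fetal liver and from adult bone marrow. The group holds 10 genes: the ligand Tgfb1, the receptors Tgfbr1, Tgfbr2 and Tgfbr3, the co-receptor Eng, the Smad factors Smad2, Smad3, Smad4 and Smad7, and the co-repressor Skil. Its probes are those whose accession names 1 of these genes, 15 of the 55664 probes left on both arrays, and the genes are 10 of 20655 named genes. Earlier results of these data were known when the genes were chosen, but the rule itself uses no measured value.

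The cells were LSK cells, which lack lineage markers and carry Sca-1 and c-Kit on their surface. One sample came from the bone marrow of wild type mice 8 weeks old, of strain C57BL/6, and the other from wild type fetal liver at E14.5, for which no strain is given in the labels used here. Neither involved a transplantation, and the cells were sorted when freshly isolated. Each sample was hybridised to 1 single-colour Agilent array, so there is no replicate and no test, and no difference below has been set against the spread between animals. Tissue and age differ together, and the arrays lay on different slides, so tissue, age and slide cannot be told apart. The labels used here give no sex, but sex-linked genes differed between the arrays, so sex cannot be told apart from these either.

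TGF-beta is made in a latent form, stored with binding proteins and then activated outside the cell. The active ligand brings a type II receptor (Tgfbr2) together with a type I receptor (Tgfbr1), which phosphorylates Smad2 and Smad3. These join Smad4 and enter the nucleus, where they switch genes on or off. Smad7 and Skil are themselves induced by the signal and hold it back, Smad7 at the receptor and Skil on chromatin. In the blood system TGF-beta is known as a signal that keeps stem cells out of the cell cycle.

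Both feedback inhibitors had far lower signals in fetal liver than in bone marrow LSK cells, Skil by 14.8-fold and Smad7 by 4.23-fold. The ligand, the receptors, the co-receptor and the signalling Smads all lay within 2-fold between the arrays. Among these 8 genes the difference ran from -0.28 for Eng to 0.87 for Tgfbr1. A difference is the log2 signal in fetal liver less that in bone marrow, once each array was divided by its own 75th percentile. The ± figure is the image software's technical error, not a spread between animals, and it is close to 0.20 for every bright probe. A gene is represented by its brightest probe, and a level means the log2 signal above or below that percentile. A gene is called dim on an array where its probes were not well above background there.

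Of the 10 genes, 2 reached 2-fold on the bone marrow side and 0 on the fetal liver side. Over all 13386 genes above background on either array, 8.15% reached 2-fold on the bone marrow side and 6.75% on the fetal liver side, or 14.9% in all. With so few genes, a count of 2 does not set the group apart from that background. The median difference of the 10 genes was 0.03, against 0.11 over all genes. Scaling by the spike-in controls instead of the percentile lowers every difference between measured signals by 0.27, moves the median of all genes to -0.17 and that of the 10 genes to -0.24, and leaves the counts of 2 and 0 as they were. The split over all genes changes more, from 904 genes on the fetal liver side and 1091 on the other to 555 and 1592.

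**Figure D1:**
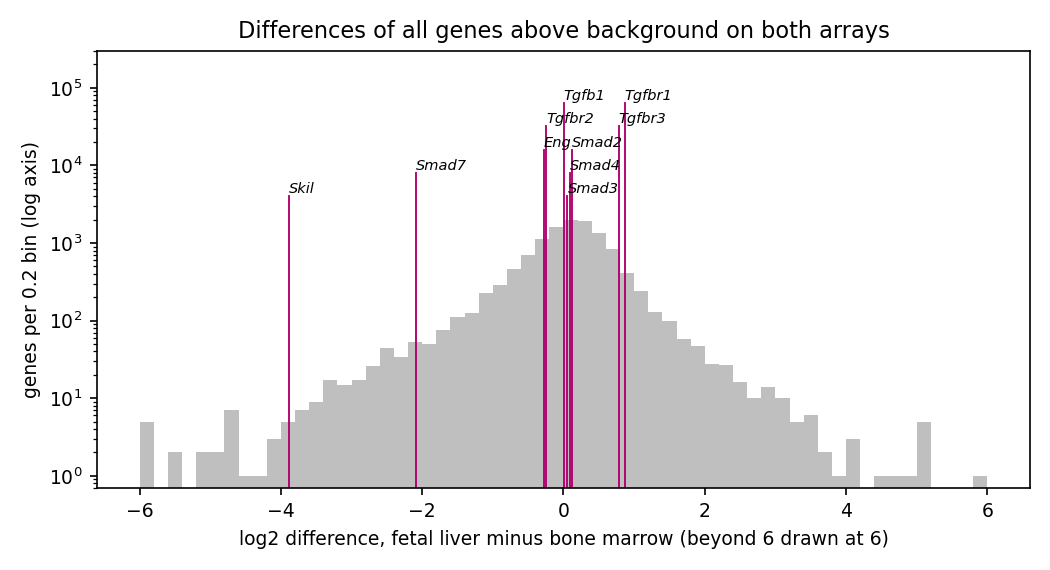
Histogram of the log2 difference, fetal liver minus bone marrow, of all genes above background on both arrays (grey, logarithmic count axis), with a vertical line at each of the 10 genes; the height of a line only separates the names. Skil at -3.88 and Smad7 at -2.08 lie in the left tail, and the other 8 genes lie between -0.28 and 0.87.

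The promoters of members with an entry in the RefSeq table (build GRCm38.p6) were read for CAGAC, the short Smad box, and for its reverse complement GTCTG. Of the 10 genes, Tgfb1, Tgfbr1, Tgfbr2, Smad3 and Eng have an entry, 6 windows in all. The box was present in 3 of these 6 windows (Tgfbr2, Eng and 1 of the 2 for Tgfbr1) and in 42.2% of the 32851 windows in the table, counting in each the 250 bases before the start. The promoters of Eng and Tgfbr2, receptor genes with small differences, are shown beside that of Ltbp3, the storage protein gene with a large one, because all 3 hold the box, which is in capitals. The windows are chr2:32646345-32646594 on the plus strand for Eng, chr9:116175364-116175613 on the minus strand for Tgfbr2 and chr19:5740650-5740899 on the plus strand for Ltbp3.
Eng: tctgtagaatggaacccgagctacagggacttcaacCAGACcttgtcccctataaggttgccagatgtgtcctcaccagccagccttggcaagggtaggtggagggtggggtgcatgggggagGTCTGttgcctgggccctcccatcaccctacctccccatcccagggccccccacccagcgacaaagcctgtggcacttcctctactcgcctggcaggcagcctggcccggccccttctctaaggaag
Tgfbr2: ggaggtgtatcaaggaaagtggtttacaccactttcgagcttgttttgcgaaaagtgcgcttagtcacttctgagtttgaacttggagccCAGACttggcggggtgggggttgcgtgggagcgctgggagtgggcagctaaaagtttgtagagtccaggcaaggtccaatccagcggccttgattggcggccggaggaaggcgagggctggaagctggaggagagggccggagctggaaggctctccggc
Ltbp3: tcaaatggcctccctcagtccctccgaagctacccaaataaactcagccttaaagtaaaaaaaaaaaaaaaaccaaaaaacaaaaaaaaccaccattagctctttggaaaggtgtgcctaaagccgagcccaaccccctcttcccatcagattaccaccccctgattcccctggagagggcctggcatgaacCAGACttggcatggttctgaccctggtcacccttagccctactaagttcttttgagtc
The box starts 214 and 127 bases before the start of Eng, 160 bases before that of Tgfbr2 and 58 bases before that of Ltbp3. A match of 5 letters is a description of the sequence and not a binding site, and genes with the box here differed between the arrays by little (Eng, Tgfbr2) or by much (Ltbp3).

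Tgfb1 encodes the main TGF-beta ligand of blood cells. Its probe is printed as 10 spots, whose mean signal was 1539 in bone marrow against 1154 in fetal liver. After scaling the level was 3.11 on both. The spots ran from 3.05 to 3.16 around a median of 3.11 in bone marrow and from 3.00 to 3.16 around 3.11 in fetal liver, so they overlapped. The difference was 0.00 ± 0.20, and -0.27 under spike-in scaling.

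The signalling receptor genes went in opposite directions, both within 2-fold. Tgfbr1, the type I receptor kinase, had signals of 224 in bone marrow against 306 in fetal liver, levels of 0.32 and 1.19. It was 1.82-fold higher in fetal liver (0.87 ± 0.21), and its dimmer probe, at signals of 26.1 and 32.3, gave 0.72 ± 0.29. Under spike-in scaling these were 0.59 and 0.45. The direction held under that scaling, and 91.3% of all genes had a lower difference than Tgfbr1.

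Tgfbr2, the type II receptor that binds the ligand, had signals of 1436 in bone marrow against 905 in fetal liver, levels of 3.00 and 2.76. Its difference was -0.25 ± 0.20, little more than the technical error. The dimmer probe, at 126 and 67.4, gave -0.49 ± 0.21. Spike-in scaling moved the pair to -0.52 and -0.76, still in the same direction.

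Tgfbr3, or betaglycan, presents the ligand to the signalling receptors. Its signals were 170 in bone marrow and 218 in fetal liver, levels of -0.08 and 0.70, a difference of 0.78 ± 0.21 or 1.72-fold (0.51 under spike-in scaling). It is read from 1 probe. Eng, or endoglin, is a co-receptor found on endothelial cells and on blood stem cells. Its signals were 1595 in bone marrow and 983 in fetal liver, levels of 3.16 and 2.87, a difference of -0.28 ± 0.20 (-0.55 under spike-in scaling). Endothelial markers as a list went the other way, with 7 of 15 measured genes past 2-fold on the fetal liver side and 0 on the other. Over all genes these shares were 6.75% and 8.15%. The summed signal of the endothelial list was 364 times the 75th percentile in bone marrow and 622 times in fetal liver. Egfl7, which is within 2-fold at 0.80, made up 84.4% and 85.9% of these sums, and without it they were 56.6 and 87.8 times. The defining marker Cdh5 was at 42.0 in fetal liver and not well above background in bone marrow, a bound of 2.18. Flt1, Sox17 and Sox18 also gave bounds on the fetal liver side. Pecam1 was the 1 measured gene with a negative difference (-0.84), while Flt4, Stab1 and Lyve1 were dim on both arrays. The part of endothelial cells in the value of Eng was not tested. In whole sorted samples, fewer cells of a type and less RNA per cell cannot be told apart.

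**Figure D2:**
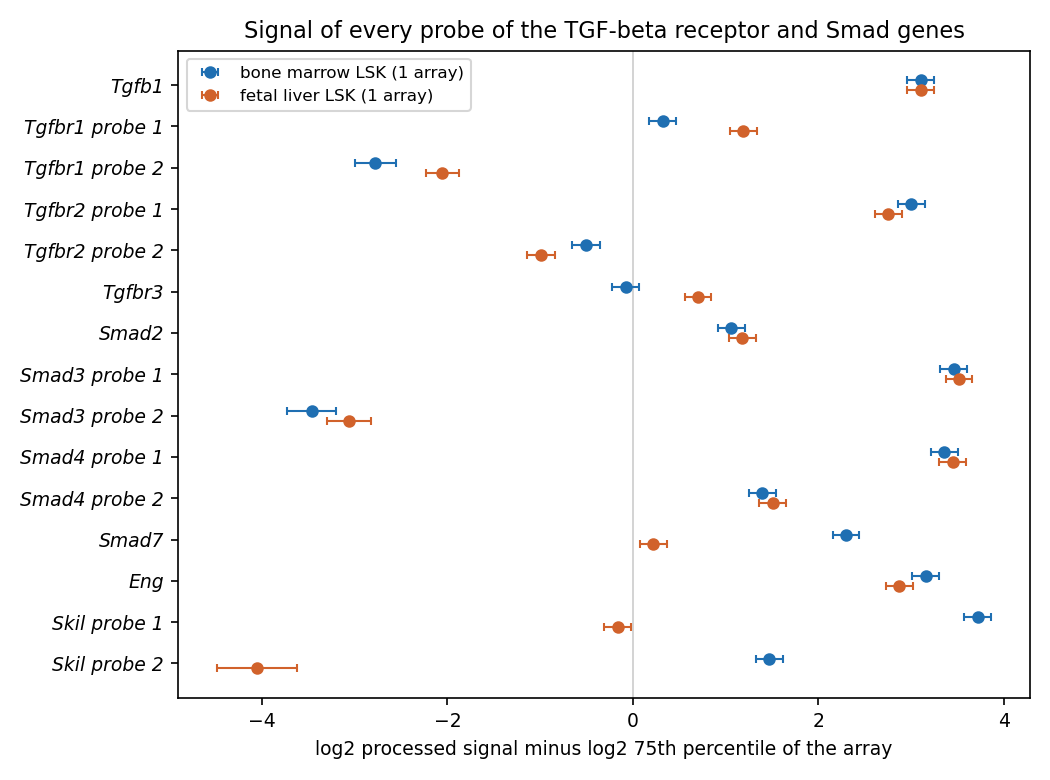
Level of each of the 15 probes (log2 signal relative to the 75th percentile of its array) in bone marrow (blue) and fetal liver (orange), 1 array each; bars are the software's technical error, and only points in the same row can be compared, since probes differ in brightness. The points of Smad7 (2.30 and 0.22) and of both Skil probes are well apart, and those of Tgfb1, Smad2, Smad4 and the brighter Smad3 probe nearly coincide.

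The Smads that carry the signal had nearly equal levels on both arrays. Smad2, a receptor-activated Smad, had signals of 373 in bone marrow against 304 in fetal liver, levels of 1.06 and 1.18, and a difference of 0.12 ± 0.20. Smad3, the other receptor-activated Smad of this branch, had signals of 1972 and 1537, levels of 3.46 and 3.52, and a difference of 0.06 ± 0.20. Its weaker probe, with signals of 16.2 and 16.1, gave 0.40 ± 0.35. Smad4, the partner shared with the BMP branch, had signals of 1838 and 1466, levels of 3.36 and 3.45, and a difference of 0.09 ± 0.20, with 0.11 ± 0.20 from its other probe. Each main difference is within its technical error, and its sign is not settled: spike-in scaling gave -0.15 for Smad2, -0.22 for Smad3 and -0.18 for Smad4. Without replicates this does not show that the levels are equal in the animals.

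Smad7, which blocks the type I receptor and recruits ubiquitin ligases to it, gave signals of 881 in bone marrow against 156 in fetal liver. The levels were 2.30 and 0.22. The difference was -2.08 ± 0.21, a 4.23-fold lower signal in fetal liver, and 2.45% of all genes had a lower difference. It is read from 1 probe. Under spike-in scaling the difference was -2.35, and with normexp background correction -1.72.

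Skil, also called SnoN, binds Smad complexes on chromatin and represses their targets. Its brighter probe had a mean signal of 2356 over 10 spots in bone marrow and 119.6 over 9 spots in fetal liver, after 1 outlier spot was left out. The bone marrow spots had levels from 3.59 to 3.79 with a median of 3.75, and the fetal liver spots from -0.30 to -0.03 with a median of -0.17. The spots of the arrays did not overlap, and all of those in fetal liver were low. The difference was -3.88 ± 0.21, and 0.269% of all genes had a lower one.

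The second Skil probe gave 496 in bone marrow and was not well above background in fetal liver, at 8.06. Set against 9.82, the lowest signal counted as well above background on that array, Skil was at least 37.8-fold lower in fetal liver by this probe, a bound of -5.24. The brighter probe gave 14.8-fold, so both probes have the same direction and differ in size. Under the alternatives tried the Skil value ran from -5.24 to -3.42.

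**Figure D3:**
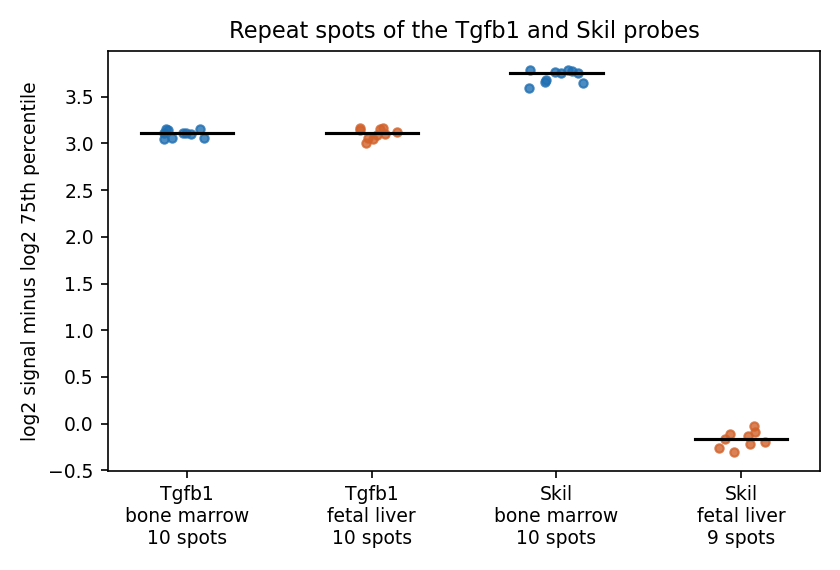
Levels of the single repeat spots (points) and their medians (lines) for the probes of Tgfb1 and Skil, each with 10 spots on an array except 9 for Skil in fetal liver; spots are technical repeats of 1 sample. The Tgfb1 spots overlap near 3.11, and the Skil spots have medians of 3.75 and -0.17.

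**Figure D4:**
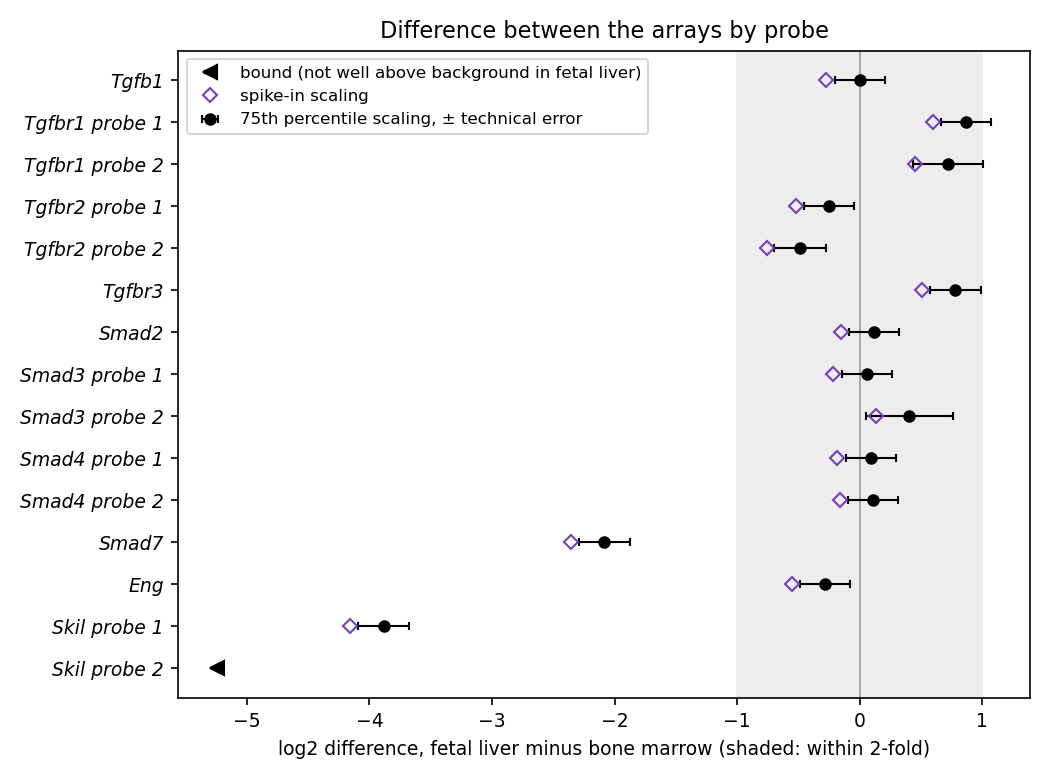
Log2 difference of each probe, fetal liver minus bone marrow, with 75th percentile scaling (black, ± technical error) and spike-in scaling (open diamonds); the shaded band is within 2-fold and the triangle is a bound. Only the probes of Smad7 and Skil lie outside the band, on the bone marrow side under both scalings, and spike-in scaling turns Tgfb1, Smad2, both Smad4 probes and the brighter Smad3 probe to the negative side.

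Other genes of the TGF-beta superfamily came from lists by role, 174 genes of which 127 were above background on either array. Of these, 11 (8.66%) reached 2-fold on the fetal liver side, against 6.75% of all genes. On the bone marrow side there were 20 (15.7%), against 8.15% of all genes. The median was -0.03 against 0.11 over all genes. Under spike-in scaling the pathway counts were 9 and 27, and those over all genes 555 and 1592. The ligand, storage, antagonist and response lists held 26 of the 31 pathway genes past 2-fold under percentile scaling. These lists had 18, 10, 9 and 22 of the 127 measured genes, with Ltbp3 on both the storage and the response list. Of 17 ubiquitin ligases, deubiquitinases and phosphatases, 13 non-Smad kinases and 8 receptors and co-receptors, 0 were at least 2-fold different. Over all genes, 14.9% were.

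Among ligands, 2 of 18 reached 2-fold on the fetal liver side and 3 on the bone marrow side, bounds included. Over all genes these shares were 6.75% and 8.15%, and counts this small do not set the ligands apart from them. Tgfb3 had signals of 41.5 in bone marrow against 13.9 in fetal liver (-1.16 ± 0.32), or -0.16 with normexp background correction, which takes it back inside 2-fold. Tgfb2 was dim on both arrays, at 2.95 and 2.42. Gdf15, a stress-induced ligand, gave 948 in bone marrow and was not well above background in fetal liver, at 10.9, so it was at least 65.1-fold lower there, a bound of -6.02. The size depends on the background correction: normexp gave -3.58.

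Genes for storing and activating the ligand had negative differences for 7 of 10, with a median of -0.87. In fetal liver 4 were at least 2-fold lower and 2 at least 2-fold higher, against 8.15% and 6.75% of all genes. The summed signal of the list was nearly equal, at 93.7 times the percentile in bone marrow and 94.8 times in fetal liver. Nrros, named after its value was seen, made up 65.4% and 90.5% of these sums. Its signals were 10953 in bone marrow and 11496 in fetal liver (0.49 ± 0.20). Without Nrros the sums were 32.4 and 9.04 times. Ltbp3, which tethers latent TGF-beta in the matrix, had signals of 2243 in bone marrow against 55.8 in fetal liver, 30.1-fold lower (-4.91 ± 0.22). Its other probe gave -2.81 ± 0.20. Thbs1, thrombospondin, which can activate latent TGF-beta, had signals of 281 and 14.0 (-3.91 ± 0.32). Itgb5, the beta subunit of an integrin that binds the latent complex, had signals of 1500 and 113 (-3.31 ± 0.21), and Mmp2, a matrix protease, 237 and 30.1 (-2.56 ± 0.23). Normexp gave -3.96 for Ltbp3, -1.89 for Thbs1 and -1.37 for Mmp2. Ltbp4 differed by -0.85 ± 0.21, while its weaker probe was not well above background in fetal liver and gave a bound of -1.25, past 2-fold. Ltbp1 was dim on both arrays. The 2 genes at least 2-fold higher in fetal liver, Lrrc32 and Ltbp2, are named after their values were seen. Lrrc32 holds latent TGF-beta on the cell surface. Its signals were 67.7 in bone marrow and 253 in fetal liver (2.32 ± 0.21, or 1.56 with normexp). Ltbp2 was at 25.3 in fetal liver and not well above background in bone marrow (a bound of 1.45, or 0.45 with normexp).

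All 8 measured receptors and co-receptors of the BMP and activin branches lay within 2-fold, 5 with positive and 3 with negative differences. Acvr2b, an activin type II receptor, had signals of 412 in bone marrow against 602 in fetal liver (0.96 ± 0.20), and Rgma, a BMP co-receptor, 114 and 170 (1.00 ± 0.21, just inside 2-fold); both are named after their values were seen. Acvrl1, an endothelial type I receptor, was at 78.0 in bone marrow and 78.8 in fetal liver (0.43 ± 0.21). Bmpr2 differed by -0.13 ± 0.22. Bmpr1a was at 13.7 in bone marrow and not well above background in fetal liver, where the bound is 1.04-fold, and Acvr1b was dim on both arrays. Of 9 measured extracellular antagonists, 1 reached 2-fold on the fetal liver side and 2 on the bone marrow side, bounds included, with a median of -0.27. Over all genes these shares were 6.75% and 8.15%, and counts this small do not set the antagonists apart from them. The antagonist past 2-fold on the fetal liver side was Fstl1, a secreted follistatin relative. Its signals were 716 in bone marrow against 2935 in fetal liver (2.45 ± 0.20).

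Smads outside the TGF-beta branch did not share one direction. Smad6, the inhibitory Smad of the BMP branch, had signals of 95.9 in bone marrow against 236 in fetal liver, 3.28-fold higher in fetal liver (1.71 ± 0.21). The inhibitory Smads thus went in opposite directions, Smad7 higher in bone marrow and Smad6 in fetal liver, each read from 1 probe. Smad5 differed by 0.80 ± 0.20, with 0.16 ± 0.22 from its other probe, and Smad1 by -0.75 ± 0.22, with -0.26 ± 0.31. Smad9 was dim on both arrays. Among genes that limit the signal, Smurf1 and Smurf2, ubiquitin ligases that act with Smad7, differed by -0.05 ± 0.21 and 0.02 ± 0.21. Ski, the closest relative of Skil, was dim on both arrays, at 12.6 and 5.77. Tgif1, another Smad co-repressor, had signals of 7110 in bone marrow against 1275 in fetal liver (-2.06 ± 0.20), and is named here after its value was seen.

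**Figure D5:**
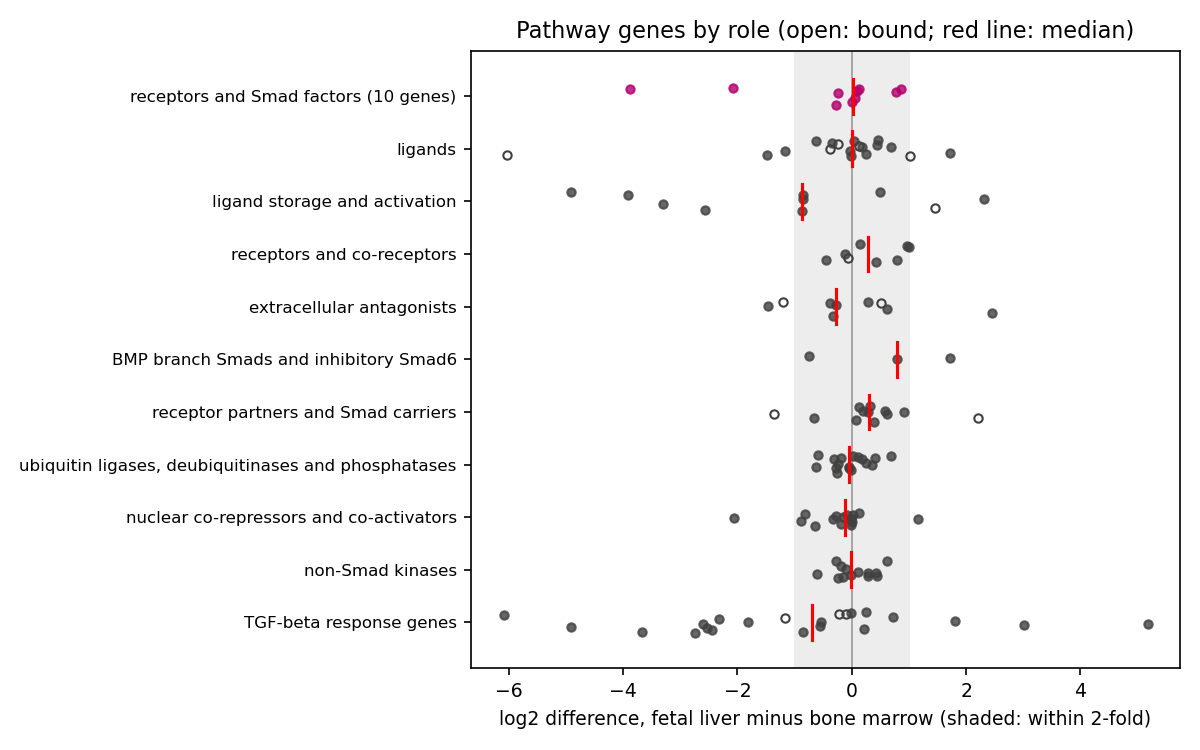
Log2 difference, fetal liver minus bone marrow, of the measured genes by role (points; open points are bounds, red lines list medians, shading within 2-fold). The receptor, ligase and kinase lists stay inside the band, and the storage list (median -0.87) and the response list (median -0.70) have most of the points far to the left.

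Of 22 measured genes on the list of TGF-beta response genes, 10 reached 2-fold on the bone marrow side and 3 on the fetal liver side. Over all genes these shares were 8.15% and 6.75%. The list was written with earlier results of these data known. Bhlhe40, a transcriptional repressor, had signals of 1043 in bone marrow against 11.5 in fetal liver (-6.09 ± 0.33). Cdkn1a, the cell cycle inhibitor p21, was at 5457 and 323 (-3.66 ± 0.20). Klf10, a zinc finger factor first found as a TGF-beta early response gene, was at 6100 and 836 (-2.45 ± 0.20), and Tsc22d1, a leucine zipper factor induced by TGF-beta, at 13317 and 1718 (-2.54 ± 0.20). Junb, Gadd45b and Atf3, which also answer stress, were at -2.75, -2.59 and -2.32. The 3 genes on the fetal liver side were Fn1, Pdgfb and Cdkn1c. Fn1, fibronectin, had signals of 31.5 in bone marrow against 853 in fetal liver (5.17 ± 0.25), and Pdgfb 169 and 1028 (3.02 ± 0.21), although the other Pdgfb probe was dim in bone marrow and gave a bound of 0.49. Cdkn1c, the cell cycle inhibitor p57, was at 535 and 1396 (1.80 ± 0.20), so the inhibitors Cdkn1a and Cdkn1c had opposite directions. The matrix genes of the list were not on one side either: Ltbp3 is counted here too, Spp1, osteopontin, was at 34.4 in bone marrow and not well above background in fetal liver (a bound of -1.16, or -0.19 with normexp), Col1a2 differed by -0.85 and Tgfbi by 0.25. Normexp gave -3.75 for Bhlhe40 and 3.48 for Fn1. Cdkn1c, Spp1, Col1a2 and Tgfbi are named after their values were seen.

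Genes of the immediate early and handling stress response mostly had lower signals in fetal liver too. Their list was written after the values were seen. Of its 28 measured genes, 18 were past 2-fold on the bone marrow side, against 8.15% of all genes. On the fetal liver side there were 0, against 6.75% of all genes, and the list median was -1.60. The summed signal of the list was 2545 times the 75th percentile in bone marrow and 1079 times in fetal liver. The part of this response in the values of Skil, Smad7 and the response genes was not tested. Of the 10 response genes higher in bone marrow, 3 are on that list, and 7 of the 19 response genes off it reached 2-fold on the same side, against 3 on the fetal liver side. This split depends on which genes were put on a list written after the values were seen. Whether the genes off it also answer stress was not tested.

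Cell identity was read from marker lists. The counts below stand beside 8.15% of all genes past 2-fold on the bone marrow side and 6.75% on the fetal liver side. Kit had signals of 4074 in bone marrow against 3062 in fetal liver (0.00 ± 0.20), and Ly6a, which encodes Sca-1, 3846 and 594 (-2.28 ± 0.20). All 12 stem and progenitor genes on the list were above background. Neutrophil markers reached 2-fold on the bone marrow side for 6 of 10 and on the fetal liver side for 0, with summed signals of 138 and 111 times the percentile. S100a9, within 2-fold at -0.26, made up 56.0% and 57.8% of the neutrophil sums. Megakaryocyte markers reached 2-fold on the bone marrow side for 4 of 12 and on the fetal liver side for 1, at 54.1 and 68.8 times. Erythroid markers reached 2-fold on the fetal liver side for 6 of 11 and on the bone marrow side for 0, at 125 and 835 times. Hbb-bt, a beta globin, made up 76.0% and 90.4% of the erythroid sums. T and NK cell markers reached 2-fold on the bone marrow side for 3 of 9 and on the fetal liver side for 1, at 109 and 43.0 times. Nkg7 made up 60.7% and 28.3% of these sums, and without it they were 42.6 and 30.8 times. Hepatocyte markers reached 2-fold on the bone marrow side for 3 of 8 and on the fetal liver side for 0, at 91.8 and 47.2 times. Trf made up 75.8% and 61.2% of the hepatocyte sums, and without it they were 22.3 and 18.3 times. Alb and 5 others of the 14 hepatocyte markers were dim on both arrays. Of 9 B cell markers 6 were dim on both, Cd79a among them, while Cd79b was at 4030 and 3974. Macrophage markers reached 2-fold for 1 of 7 on each side and stromal markers for 0 of 3. Counts this small do not set these lists apart from all genes. The Y-linked Eif2s3y was at 2.61, not well above background, in bone marrow and at 496 in fetal liver, and the labels used here give no sex. Ddx3y, also Y-linked, was at 2.82, not well above background, and at 197. The X-linked Xist was at 719 in bone marrow and 132 in fetal liver (-2.03 ± 0.21), and its other measured probe gave -1.07. The Y-linked Uty was low on both arrays by its brighter probe, at 14.8 and 17.3 (0.65 ± 0.49). Its other measured probe gave a value or bound of 1.37, on the fetal liver side. Kdm5d was dim on both arrays. The part of other cells and of sex in the values above was not tested.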

How the data were processed

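Expression was measured in 2 samples of sorted LSK cells, with 1 array each. Per the labels' protocols, 20 ng of total RNA was amplified and labelled with Cy3. Per the file headers, the deposited intensity values come from Agilent Feature Extraction 10.7.1.1, which subtracts background and removes the spatial trend within an array and does not scale between arrays. The deposited series value table holds a ratio made by the authors, the signal over 1 constant per array (178.6 for bone marrow, 133.9 for fetal liver, matching within 0.1% for 99.99% of single-spot probes), on a linear scale; it served as an alternative.

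Outlier spots (137 and 122) and control spots were left out, spots of a probe averaged, and log2 signals set to the array's 75th percentile (178.9 and 134.0). Probes well above background made up 47.4% and 46.4%. No spot was saturated. Gene names came from the RefSeq table through each probe's accession, for 27226 of 55664 probes. The spread of measured differences has an SD of 0.89 over genes. A gene took its brightest measured probe. Where a probe was well above background on 1 array only, its difference is a bound against the higher of the dim signal and the lowest signal well above background on the dim array (12.4 and 9.82). The ± value combines the software's signal errors. Its median was 0.20 over all genes above background on both arrays. Within an array, the spot levels of the Tgfb1 and Skil probes had SDs from 0.04 to 0.09. The number of arrays limits the precision. Differences were counted at 2-fold, with no test. The code was tested on simulated data. Normexp used limma 3.58.1 on spot medians, since the files read here have no spot mean.

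The genes and lists were chosen with earlier results of these data known. Named were all 10 genes with every probe, 16 close relatives, and the pathway genes of largest difference up to 30 in all; 14 further genes past 2-fold stand in the counts, 5 of them (Tgif1, Lrrc32, Ltbp2, Cdkn1c and Spp1) named after their values were seen.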

Additional observations from a re-analysis of the deposited data

How the results depend on the processing

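Skil and Smad7 kept a difference past 2-fold on the bone marrow side under all 10 alternatives that give a value, Skil from -5.24 to -3.42 and Smad7 from -2.35 to -1.72. Not all of these could move a value. Smad7 is read from 1 probe above background on both arrays, so the filters and the choice of probe left it at -2.08 by construction. The count of 0 genes higher in fetal liver became 2 (Tgfbr1 and Tgfbr3) at a 1.5-fold threshold. The median of the 10 genes moved from 0.03 to -0.24 under spike-in scaling. The pathway count higher in fetal liver, 11, was 7 with normexp, 20 both with no filter on dim probes and with the software's weaker flag for signals that are positive and significant, and 22 at 1.5-fold; the bone marrow count, 20, was 33 at 1.5-fold. Over all genes, 904 higher in fetal liver became 555 under spike-in scaling, 379 with normexp, 1691 with no filter and with the flag, and 2352 at 1.5-fold; 1091 higher in bone marrow became 606, 1655, 1655 and 1996 with normexp, no filter, the flag and 1.5-fold. The cause of the shifts with normexp was not tested. Of 100 single values of the 10 genes, 81 moved by less than their technical error and 19 by more, and none past 2-fold changed sign. The 81 include values that a setting could not move, so their number is no measure of stability. No paired analysis was possible because the arrays share only replicate number 1, and with 1 array per group no replicate could be left out. Signal over background limits the second Skil probe, and low signals limit the weaker probes of Smad3 and Tgfbr1.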
